A study of Mus musculus with 4 samples.

Results

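Soft-masked sites in named genes are the adenosines that were called as methylated, carry a gene name in the deposited tables and have a 3-mer written all in lower case. Lower case is the usual mark of repeat-masked bases in a genome file, and no source used here names the masking program. The rule found 501 positions in 444 genes, of 10598 positions with a gene name and 25595 positions in all, and these were listed 637 times over the 4 libraries. Neither the level, nor the strand, nor the number of libraries was used to choose them. The rule reads only the name and the case, and a further 26 named positions with a 3-mer of mixed case were left out.

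N6-methyladenosine (m6A) is placed on messenger RNA mainly by the METTL3 and METTL14 complex, most often at an adenosine followed by C and preceded by G or A, so that the 3-mer around the site reads GAC or AAC. Repeat-masked sequence includes interspersed elements such as SINEs, LINEs and endogenous retroviruses, simple repeats, and the many scattered copies of small nuclear RNA and transfer RNA genes. Long non-coding RNAs and zinc finger genes are rich in such elements, while the coding parts of messenger RNA hold few. Transcripts from repeats, among them LINE-1 and endogenous retroviral RNA, are known to carry m6A.

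The study sorted astrocytes, the glia that clear neurotransmitter, with an antibody against ACSA2, and microglia, the macrophages of the brain, with one against Cd11b, from the cortex of mice with the genotype APOBEC1-YTH. There were 2 libraries of each type. Every group carried the transgene and received tamoxifen at 20 mg/kg every 24 hours for 5 days from an age of 10 weeks, with tissue taken 7 days after the last dose. In GLORI, unmethylated adenosine is converted and read as G, and the level at a site is the share of reads that still show A. The labels do not say which promoter drives the transgene, whether animals were pooled, or whether replicates came from separate animals.

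The markers of cell type went against the labels in replicate 2. Of 20 astrocyte markers, 16 had a site in the library labelled astrocyte 1 and 15 in that labelled microglia 2, against 1 in astrocyte 2 and 0 in microglia 1. Of 20 microglia markers, 16 had one in astrocyte 2 and 15 in microglia 1, against 2 and 1 in the remaining pair. Of 10 oligodendrocyte markers, 8 were found in each of astrocyte 1 and microglia 2, and 0 elsewhere. The libraries listed 6343 to 12687 sites each, and their read depth is unknown. Libraries are called here by their labels, in the order astrocyte 1, astrocyte 2, microglia 1 and microglia 2 wherever 4 values follow each other. Results are given per library, and the comparisons between kinds of site were made within each library, where the label plays no part.

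Soft-masked sites made up 4.93% of named-gene sites in astrocyte 1 (236 of 4790, exact 95% binomial interval 4.33 to 5.58), 5.66% in astrocyte 2 (133 of 2348, 4.76 to 6.68), 10.7% in microglia 1 (114 of 1066, 8.90 to 12.7) and 4.07% in microglia 2 (154 of 3782, 3.46 to 4.75). Microglia 1 stood above the other 3 libraries, whose intervals partly overlapped. Outside named genes the soft-masked share was 33.4% to 34.7% in every library. The intervals count sites only and do not include error in the calls. The astrocyte minus microglia difference in the named-gene share was -2.09 points (means 5.30% and 7.38%, two-sided exact permutation p = 1, where 2 against 2 libraries allow no p below 0.33). In these bulk libraries, fewer cells of a type and less RNA per cell cannot be told apart.

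The share of listed sites that were soft-masked differed widely between gene classes. Classes were taken from a RefSeq table of GRCm38.p6 by symbol, in which 411 of the 444 genes were found. In protein-coding genes 289 of 9605 positions were soft-masked, 3.01% (interval 2.68 to 3.37). In long non-coding RNA (lncRNA) genes, whose transcripts make no protein, it was 113 of 549, 20.6% (17.3 to 24.2). Small nuclear RNA (snRNA) genes, whose products work in splicing and transcription, had 30 of 33 positions soft-masked, 90.9%. Small nucleolar RNA (snoRNA) genes, which guide modification of other RNAs, had 3 of 65, 4.62%. Pseudogenes stood at 22 of 173, 12.7%, and transfer RNA genes at 3 of 5. Symbols without a match stood at 35 of 128, and 34 of those 35 positions were in LOC genes. How much of the sequence of each class is soft-masked was not determined, as no genome sequence was used here. Its part in these shares was not tested.

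Within each library the lncRNA share was far above the coding share. The soft-masked share of lncRNA sites was 21.1%, 27.6%, 23.7% and 21.1% over the 4 libraries, against 2.98%, 3.77%, 3.19% and 2.52% of coding sites. The mean difference was 20.2 points ± 2.58 (SD, n = 4 libraries) and positive in 4 of 4 (two-sided exact sign-flip permutation p = 0.13, the smallest that 4 libraries allow, adjusted p = 0.297 over 19 comparisons of this kind). In these 2 classes microglia 1 lay within the range of the other libraries. It stood above them among pseudogene sites, at 46.4% against 18.2%, 11.7% and 14.0% in astrocyte 1, astrocyte 2 and microglia 2, and among small RNA sites, at 53.5% against 32.5%, 19.2% and 35.3%. Coding genes held 784 of its 1066 named-gene sites, against 4335 of 4790 in astrocyte 1. The part of either in its higher overall share was not tested.

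**Figure D1:**
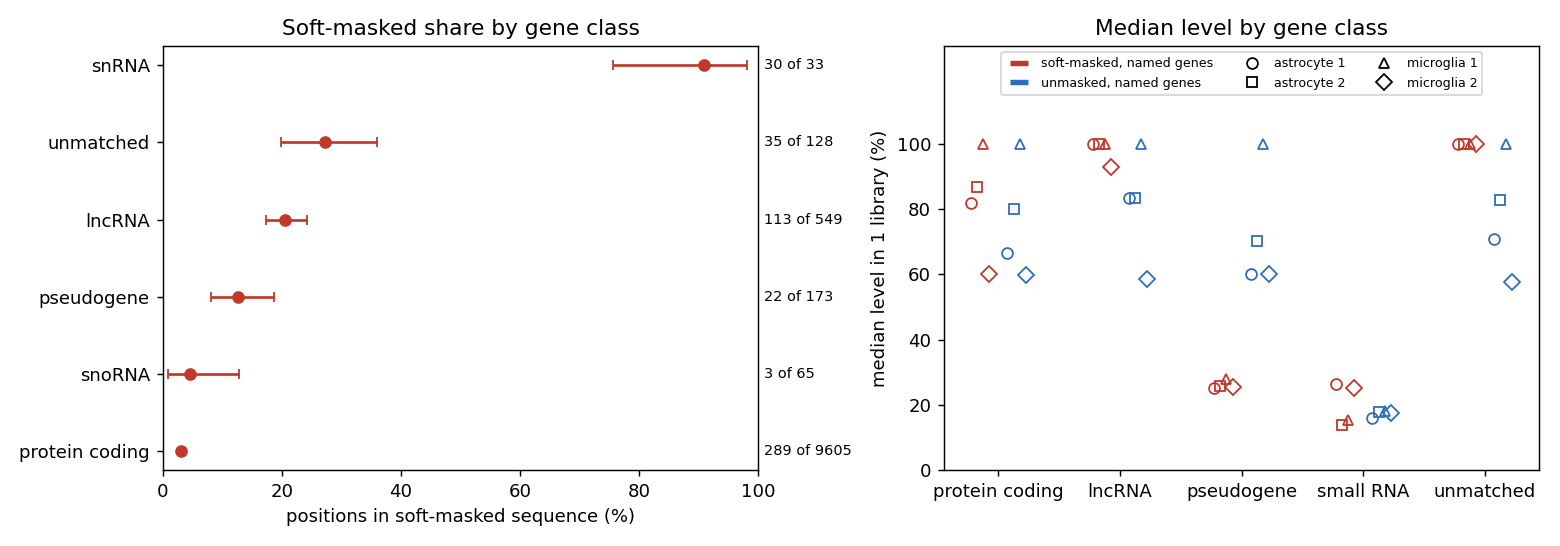
Left, the share of listed positions in soft-masked sequence (x axis, %) by gene class, with exact 95% binomial intervals and the counts at the right; snRNA genes stand at 90.9% and protein-coding genes at 3.01%. Right, the median level in each library (y axis, %) for soft-masked (red) and unmasked (blue) sites of named genes by class, with 1 marker shape per library; soft-masked pseudogene and small RNA sites sit below 30% in all 4 libraries.

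Levels of soft-masked gene sites lay between those of unmasked gene sites and of soft-masked sites outside genes in 3 libraries. The median was 85.7%, 90.9%, 100% and 60% over the 4 libraries. For unmasked gene sites it was 66.7%, 80%, 100% and 58.3%, and outside genes it was 100% in every library. Against unmasked gene sites the medians differed by 7.91 points ± 8.84 (SD, n = 4), higher in 3 of 4 libraries and equal in microglia 1 (two-sided exact sign-flip permutation p = 0.25, adjusted p = 0.25 over 10 comparisons). That difference is smaller than its spread over libraries, and without astrocyte 1 it was 4.19. With means in place of medians it was 1.59 ± 7.86 (exact sign-flip permutation p = 0.75), and microglia 1 had the lower mean at soft-masked sites, 73.8% against 83.6%.

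The share at 100% set soft-masked gene sites apart from soft-masked sites outside genes more evenly over libraries than the median did. Of soft-masked gene sites 45.8%, 48.1%, 57.0% and 27.9% stood at 100% over the 4 libraries. Of unmasked gene sites it was 26.3%, 37.1%, 60.5% and 14.7%, so that the order was turned in microglia 1. Of soft-masked sites outside genes it was 74.1%, 80.6%, 88.3% and 75.4%, above the gene sites in every library, with a mean difference of -34.9 points ± 8.58 (SD, n = 4; exact sign-flip permutation p = 0.13, adjusted p = 0.179). Unmasked sites outside genes stood at 100% in 72.4%, 79.5%, 90.0% and 72.3%, also above the gene sites. Against unmasked gene sites the share at 100% differed by 10.0 points ± 9.71 (SD, n = 4; exact sign-flip permutation p = 0.25, adjusted p = 0.25). At levels of at least 20% this difference was 14.0 ± 5.36. With small RNA genes left out, a setting chosen after seeing the data, it was 14.9 ± 5.44 (unadjusted p = 0.13 in each setting, same permutation test). Among sites below 100% the direction against unmasked gene sites turned. Their medians were 50%, 53.3%, 26.9% and 50%, against 54.5%, 57.1%, 60% and 50%, a mean difference of -10.4 points, with microglia 1 the library that stood apart.

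**Figure D2:**
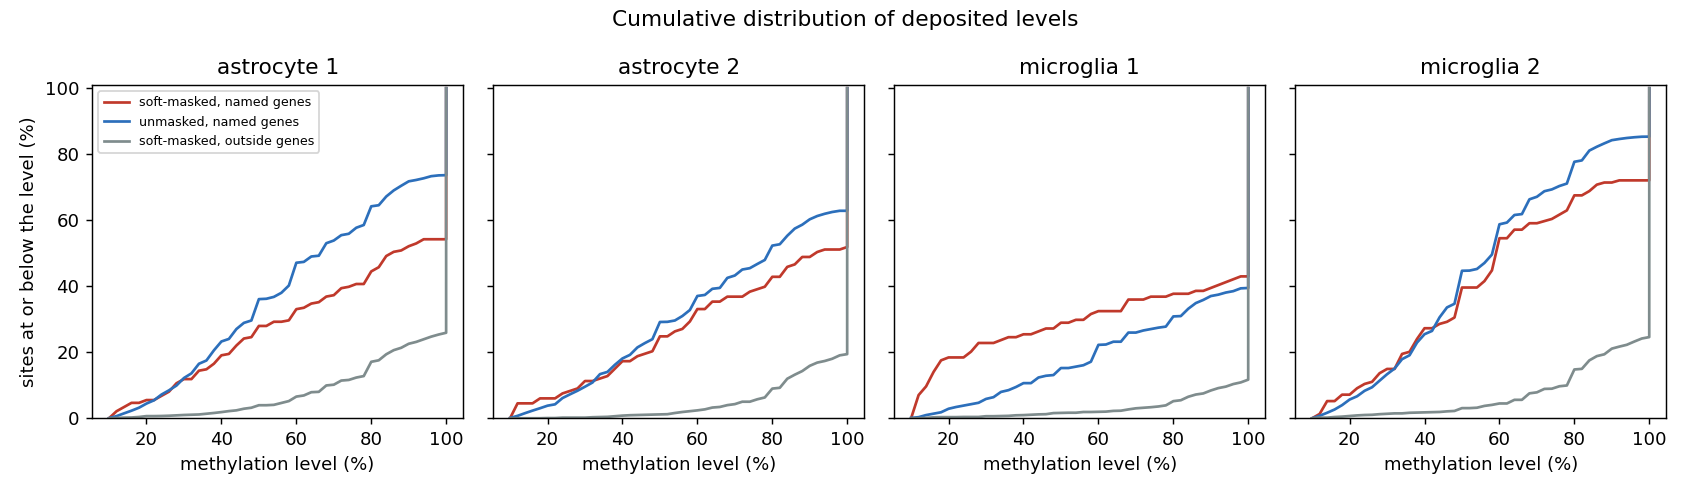
Cumulative share of sites (y axis, %) at or below a given level (x axis, %) in each library, for soft-masked sites of named genes (red), unmasked sites of named genes (blue) and soft-masked sites outside genes (grey). The vertical step at the right edge is the share at 100%, and in microglia 1 the red line rises early, with 21 of 114 sites below 20%.

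Low levels were found mostly in small RNA genes and pseudogenes. Of the 637 listings 52 were below 20%, and 29 of these were in snRNA, snoRNA or transfer RNA genes, 14 in pseudogenes, 4 in coding genes and 4 in lncRNA genes. The median over soft-masked sites of these small RNA genes was 26.6%, 14.0%, 15.5% and 25.2% over the 4 libraries. It was lower than the coding median of the same library in 4 of 4, by a mean of -61.8 points ± 21.6 (SD, n = 4; exact sign-flip permutation p = 0.13, adjusted p = 0.297). Unmasked sites of small RNA genes, nearly all of them snoRNA, were as low, at 16.1% to 18.2%. Soft-masked pseudogene sites stood at medians of 25.3%, 25.9%, 28.0% and 25.4%, against 60%, 70.3%, 100% and 60% at unmasked pseudogene sites.

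lncRNA sites stood at the other end. Their soft-masked medians were 100%, 100%, 100% and 92.9%, and 71.4%, 70.4%, 85.7% and 50% of them stood at 100% over the 4 libraries. In coding genes 37.2%, 45.6%, 60% and 17.2% did so. The share at 100% was higher in lncRNA genes in 4 of 4 libraries, by 29.4 points ± 4.8 (SD, n = 4; exact sign-flip permutation p = 0.13, adjusted p = 0.297). In coding genes alone, soft-masked sites at 100% exceeded unmasked ones in 4 of 4 libraries, by 6.47 points ± 4.1 (exact sign-flip permutation p = 0.13, adjusted p = 0.297). In lncRNA genes they did so in 3 of 4, by 17.6 points ± 12.6 (exact sign-flip permutation p = 0.25, adjusted p = 0.317). Unmasked lncRNA sites also stood above unmasked coding sites in each library. Of the former 43.2%, 46.4%, 86.0% and 31.4% were at 100%, and of the latter 25.6%, 37.5%, 57.2% and 13.8%.

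Within the same gene and library the median difference was small in 3 libraries, while the mean difference was larger in 2 of these. In astrocyte 1, 50 genes had both kinds of site, and the soft-masked median was higher in 25, lower in 19 and equal in 6. In astrocyte 2 the counts over 36 genes were 16, 17 and 3, in microglia 1 over 5 genes 1, 1 and 3, and in microglia 2 over 31 genes 19, 11 and 1. The median difference was 0.10, 0, 0 and 7.44 points, which over the 4 libraries is 1.88 ± 3.7 (SD; exact sign-flip permutation p = 0.5). The mean difference was 2.42, 7.85, -0.28 and 4.70 points over the 4 libraries, and it was not tested. In the median difference, no shift beyond the spread between libraries was seen when the gene was held fixed.

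The 3-mer differed more evenly. AAC made up 50.4%, 54.9%, 55.3% and 56.5% of soft-masked gene sites over the 4 libraries. At unmasked gene sites it made up 31.4%, 33.7%, 41.4% and 29.5%. The exact intervals of the 2 kinds did not overlap in any library, and the mean difference was 20.3 points ± 5.4 (SD, n = 4; higher in 4 of 4, exact sign-flip permutation p = 0.13, adjusted p = 0.179). Outside genes soft-masked sites had AAC in 58.2% to 63.6%, above the gene sites in 4 of 4 libraries by a mean of 6.26 points. Coded as gene sites minus outside sites, the difference was -6.26 ± 2.66 (SD, n = 4, exact sign-flip permutation p = 0.13, adjusted p = 0.179). Unmasked sites outside genes had AAC in 53.9% to 59.2%, so a high AAC share was not confined to masked sequence. How often AAC and GAC occur in masked and unmasked sequence was not determined, and its part in the difference was not tested.

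Coding genes carried this difference as well. There AAC made up 44.2%, 54.4%, 60% and 62.1% of soft-masked sites and 30.4%, 33.9%, 38.5% and 28.7% of unmasked sites, a difference of 22.3 points ± 8.2 (SD, n = 4; higher in 4 of 4, exact sign-flip permutation p = 0.13, adjusted p = 0.297). In lncRNA genes, where unmasked sites already had AAC in 40.8% to 58.9%, the difference was 7.35 ± 6.3 points and positive in 3 of 4 (p = 0.25 by the same permutation test). In soft-masked snRNA positions GAC was the more common 3-mer, at 19 of 30.

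The strand showed a smaller difference. The plus strand held 55.9%, 57.1%, 61.4% and 55.2% of soft-masked gene sites, 51.6% to 52.1% of unmasked gene sites and 61.3% to 63.4% of soft-masked sites outside genes. Of unmasked sites outside genes it held 57.0% to 61.4%. The excess over unmasked gene sites was 5.58 points ± 2.9 (SD, n = 4) and positive in 4 of 4 (exact sign-flip permutation p = 0.13, adjusted p = 0.179), but the exact intervals of the 2 kinds overlapped in 4 of 4 libraries (49.3 to 62.4 against 50.1 to 53.0 in astrocyte 1, for example). Without predicted and Riken transcripts it was 1.71 ± 6.16 points (exact sign-flip permutation p = 0.875). In coding genes alone it was 2.52 ± 8.3 points and positive in 2 of 4 libraries (p = 0.75 by the same permutation test).

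**Figure D3:**
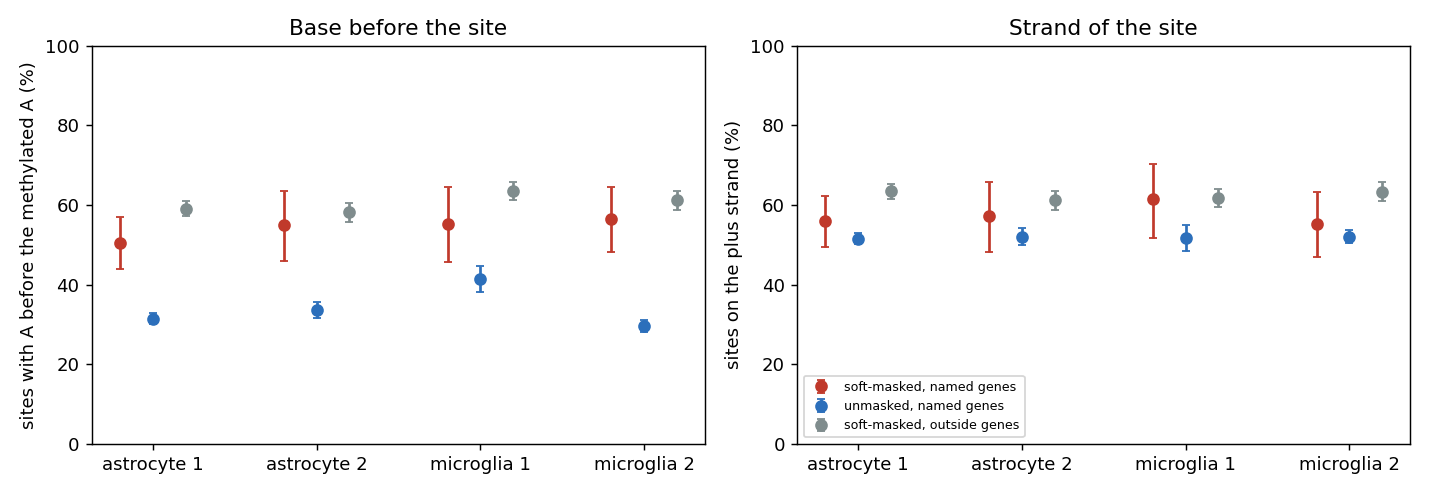
Share of sites in each library with A rather than G before the methylated base (left, y axis in %) and on the plus strand (right, y axis in %), with exact 95% binomial intervals. Red points (soft-masked sites of named genes) stand above blue (unmasked sites of named genes) on the left, at 50.4% to 56.5% against 29.5% to 41.4%.

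Soft-masked gene sites stood alone more often than unmasked ones. A second listed site within 100 bases on the same strand was found for 11 of 236, 7 of 133, 0 of 114 and 4 of 154 soft-masked sites, or 4.66%, 5.26%, 0% (which allows up to 3.18%, exact 95% upper limit) and 2.60%. For unmasked gene sites it was 10.1%, 10.8%, 5.32% and 9.56%. The difference was -5.83 points ± 0.76 (SD, n = 4; lower in 4 of 4, exact sign-flip permutation p = 0.13, adjusted p = 0.297). Soft-masked sites outside genes had such a neighbour in 1.52%, 1.41%, 1.11% and 1.90%. Soft-masked gene sites differed from these by 1.65 points ± 2.28 and were higher in 3 of 4 libraries (exact sign-flip permutation p = 0.375, adjusted p = 0.445). Per gene, 398 of the 444 genes had 1 soft-masked position, 37 had 2, 7 had 3 and 2 had 4. A total of 278 genes had no unmasked site in any library, of which 117 were coding and 76 lncRNA genes.

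Sharing between libraries differed by gene class. Sites also listed in another library made up 29.7%, 31.6%, 50% and 35.7% of soft-masked gene sites over the 4 libraries. Among unmasked gene sites they made up 16.9%, 15.2%, 39.5% and 19.4%, and among soft-masked sites outside genes 49.7%, 42.9%, 63.8% and 66.6%. The difference from unmasked gene sites was 14.0 points ± 2.9 and that from sites outside genes -19.0 ± 8.73 (SD, n = 4; 4 of 4 libraries each way, exact sign-flip permutation p = 0.13, adjusted p = 0.179). A shared site is counted in each library that lists it, so the 4 libraries are not fully independent here.

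In coding genes the excess over unmasked sites was not seen. There 12.4%, 13.9%, 40% and 16.1% of soft-masked sites were listed elsewhere, against 15.7%, 13.9%, 37.9% and 18.3% of unmasked sites, a difference of -0.87 points ± 2.4 (exact sign-flip permutation p = 0.5, adjusted p = 0.559). In lncRNA genes the shares were 46.4%, 51.9%, 54.8% and 50%, against 32.0%, 30.4%, 39.5% and 34.3%, a difference of 16.7 points ± 3.2 and positive in 4 of 4 (p = 0.13 by the same permutation test, adjusted p = 0.297). Over positions, 20 of 289 coding, 32 of 113 lncRNA, 15 of 36 small RNA and 11 of 22 pseudogene positions were listed in 2 or more libraries.

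**Figure D4:**
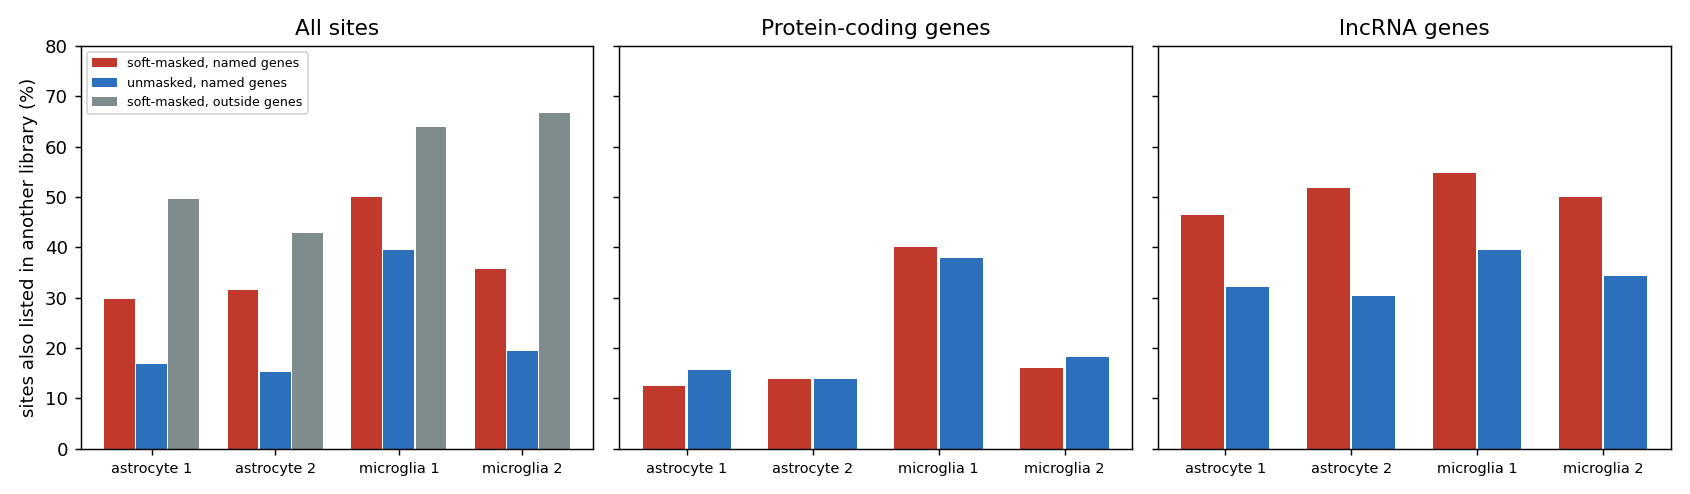
Share of sites of each library that were also listed in at least 1 other library (y axis, %), over all sites (left), in protein-coding genes (middle) and in lncRNA genes (right); red, soft-masked sites of named genes, blue, unmasked sites of named genes, grey, soft-masked sites outside genes. Red exceeds blue in the left and right panels, by 14.0 and 16.7 points on average, and not in the middle one (-0.87 points).

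In all, 413 soft-masked gene positions were listed in 1 library, 49 in 2, 30 in 3 and 9 in 4. Of the 88 in 2 or more libraries, 43 stood at 100% wherever they were listed. The other 45 had a median range between libraries of 10.7 points, and 4 of them ranged over more than 30 points. By class, 25 of 32 shared lncRNA positions stood at 100% throughout, 6 of 20 coding positions did, and 0 of 15 small RNA positions.

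The 9 positions in all 4 libraries lay in noncoding genes, apart from one in Slc9b1, which encodes a sodium/proton exchanger. Slc9b1 stood at 100% in all 4 libraries at position 135085732 of chromosome 3 (plus strand, mm39), and a second AAC position at 135063287 stood at 100% in astrocyte 1, microglia 1 and microglia 2. Exon or intron was not determined, since no mm39 annotation was used here. The lncRNA genes 9330104G04Rik, Gm10825, Gm40699, Gm35002 and Gm36677 and Naip3, listed as a pseudogene, also stood at 100% in all 4. Gm33190 stood at 99.4% in the library labelled astrocyte 2 and at 100% in the others.

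Gm22126, a pseudogene in the RefSeq table, was the exception among them. Its GAC position at 35846239 of chromosome 13 (plus strand) stood at 22.8%, 25.9%, 26.9% and 24.5% over the 4 libraries, and the values of the 2 types overlapped under the labels as deposited. The libraries with astrocyte marker sites, astrocyte 1 and microglia 2, had the 2 lower values. It was the one soft-masked gene site that could be tested for a difference between the labelled types, as the other 8 tied within both types once levels were limited to 99%. Its astrocyte minus microglia difference was -0.11 on the log2 odds scale ± 0.57 (SE; limma, adjusted p = 0.933). Over all sites of the series listed in 4 libraries limma called 0 of 354 tested, 0%, with 16 at an unadjusted p under 0.05. Both tests used the types as labelled, which the marker sites of replicate 2 go against. They cannot decide on a difference between the types that the marker sites give, which was not tested.

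Further low positions were listed in 3 libraries. Gm15105, a pseudogene, had an AAC position at 149150128 of chromosome X (minus strand) at 15.1% in astrocyte 1, 16.7% in astrocyte 2 and 11% in microglia 1. Gm51850, a pseudogene, stood at 18.6%, 14.9% and 17.9% in astrocyte 1, microglia 1 and microglia 2. The snRNA gene Gm23692 stood at 13.6%, 16.2% and 13.2% in the same libraries. At each of these 3 positions the libraries lay within 6 points of each other.

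Gm22220, another pseudogene, stood at 29.0%, 28.0% and 33.8% in astrocyte 1, microglia 1 and microglia 2. The transfer RNA gene n-TNgtt9 stood at 36.2%, 25.3% and 32.2% in astrocyte 2, microglia 1 and microglia 2. Gm26448 and Gm26264 were less even. The snoRNA gene Gm26448 stood at 26.6% in astrocyte 1, 11.1% in astrocyte 2 and 13.5% in microglia 2, and the snRNA gene Gm26264 at 29.7%, 10.1% and 13.8% in astrocyte 2, microglia 1 and microglia 2. The snRNA gene Gm23847, named after its values were seen, had the widest spread of the positions listed in 3 or more libraries, at 22.2%, 73.7% and 17.6% in astrocyte 1, microglia 1 and microglia 2. Copies of small RNA genes are near identical, and how reads that fit several copies were placed is not given in the sources used here, so single copies are uncertain.

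**Figure D5:**
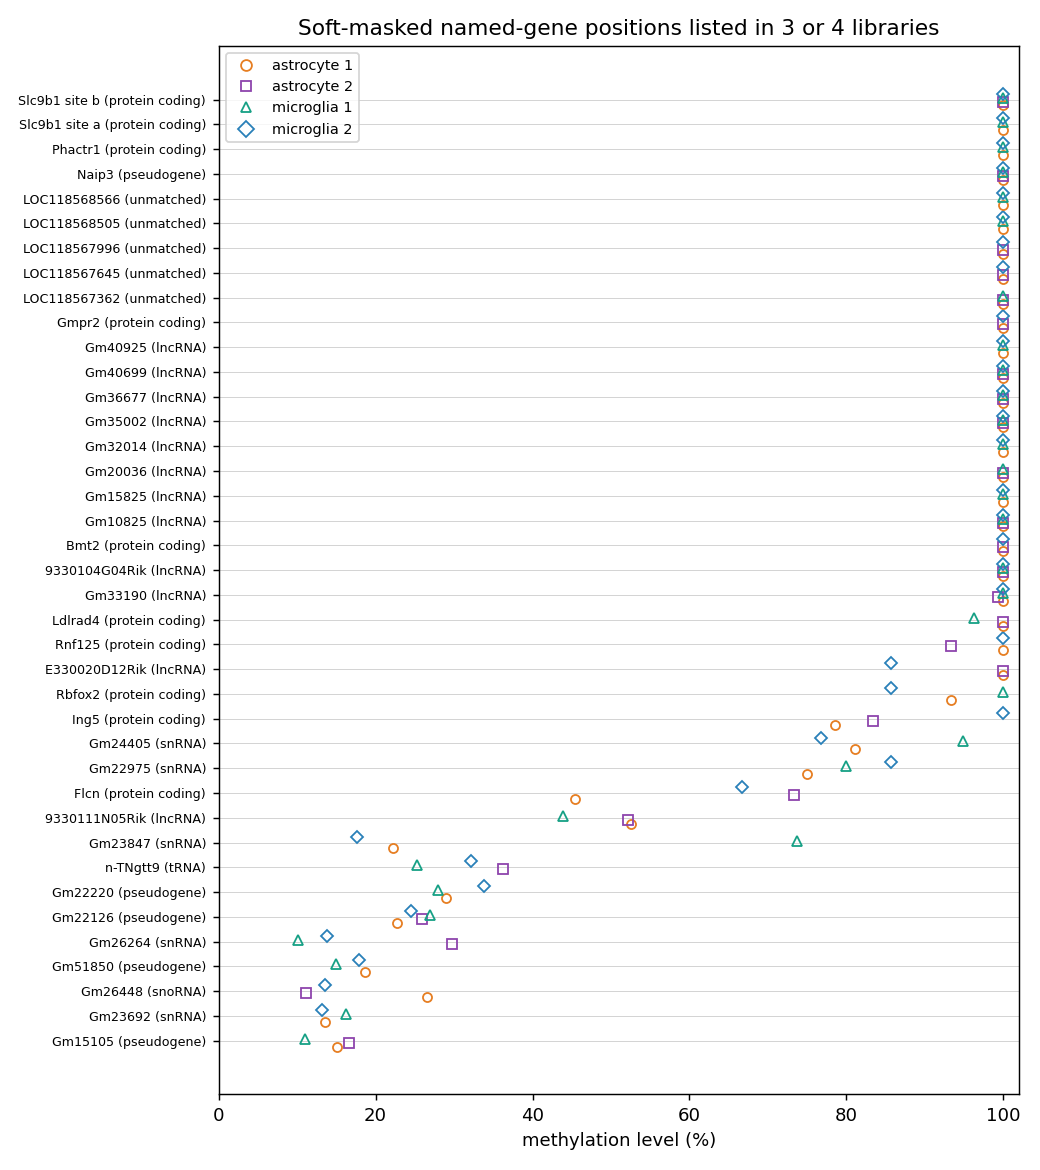
Levels (x axis, %) of the 39 soft-masked named-gene positions listed in 3 or 4 libraries, 1 row per position with its gene and class, and 1 marker per library. The lowest rows, from Gm15105 at a mean of 14.3% to Gm23847 at 37.9%, are small RNA genes and pseudogenes, and the rows at 100% are lncRNA, coding and unmatched genes and the pseudogene Naip3.

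Coding positions in 3 libraries were named after their values were seen. Flcn, which encodes the tumour suppressor folliculin, stood at 45.5% in astrocyte 1, 73.3% in astrocyte 2 and 66.7% in microglia 2. Ing5, a subunit of histone acetyltransferase complexes, stood at 78.6%, 83.3% and 100% in the same libraries. Rbfox2, a splicing regulator, stood at 93.3%, 100% and 85.7% in astrocyte 1, microglia 1 and microglia 2. Gmpr2, a GMP reductase, and Bmt2, a sensor of S-adenosylmethionine, stood at 100% in astrocyte 1, astrocyte 2 and microglia 2. Phactr1, a regulator of actin and protein phosphatase 1, stood at 100% in astrocyte 1, microglia 1 and microglia 2.

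The genes with most soft-masked positions listed nearly all of them in 1 library each. Gm15521, a lncRNA gene on chromosome 9, had 4 positions: 33.3%, 60% and 60% in microglia 2 and 50% in microglia 1. Zbed6, a transcriptional repressor that derives from a DNA transposon, had 4 positions between 133584989 and 133585281 of chromosome 1 (minus strand). They stood at 80% and 100% in astrocyte 1 and at 60% and 60% in microglia 2, and no position was listed by both libraries. Igh, the immunoglobulin heavy chain locus, had 3 positions at 100% in astrocyte 1, one of them also at 100% in astrocyte 2.

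Mertk, a receptor for the uptake of dying cells, had 3 GAC positions within 128643686 to 128644196 of chromosome 2 (plus strand), at 41.7% and 50% in astrocyte 1 and 37.5% in microglia 2. Ncan, the proteoglycan neurocan of the brain matrix, had 3 AAC positions on chromosome 8 (minus strand), at 70% in astrocyte 1 and 62.5% and 57.9% in microglia 2. Both genes had their soft-masked sites in the libraries with astrocyte marker sites and none in the others. Their unmasked sites lay in the same libraries, 3 in astrocyte 1 for Mertk, and 6 in astrocyte 1 and 4 in microglia 2 for Ncan. Tcp11l1 had 3 positions in microglia 2 alone, at 60%, 60% and 100%. 3300002I08Rik, the first by name of 37 genes with 2 positions, had 2 AAC positions in astrocyte 1, each at 40%.

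The lncRNA genes Gm32849 and Gm40578 had 3 positions each. Gm32849 stood at 37.5% and 62.5% in astrocyte 2 and 60% in astrocyte 1, and Gm40578 at 26.7% in astrocyte 1 and 40% and 50% in microglia 2. Gm52229, a predicted coding gene on chromosome 16, stood at 100% and 80% in astrocyte 1 alone, while its GAC position at 41831012 had 30% of reads unconverted for astrocyte 1 and 46.7% for microglia 2. Of the 9 genes with 3 or 4 soft-masked positions, Igh was the one with every site at 100%.

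Cell type markers held few soft-masked sites. Of 101 positions in astrocyte markers 3 were soft-masked, 2.97% (interval 0.62 to 8.44), close to the 3.01% of all coding positions. They lay in Kcnj10, a potassium channel, at 71.4% in astrocyte 1, in Atp1b2, whose protein carries the epitope used for sorting, at 13.2% in microglia 2, and in Cldn10, a tight junction protein, at 36.4% in microglia 2. Of 72 positions in microglia markers 1 was soft-masked, in Siglech, a lectin of microglia, at position 55427310 of chromosome 7, at 39.3% in astrocyte 2 and 44.4% in microglia 1. Of the 30 positions in oligodendrocyte markers none was soft-masked (0%, upper limit 11.6%), nor of 9 in endothelial and mural or 2 in neuron markers.

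Other lists gave the following counts, beside soft-masked shares of 4.73% over all named-gene positions and 3.01% over coding positions. Of 25 positions in m6A writers, erasers and readers 1 was soft-masked (interval 0.10% to 20.4%), in Igf2bp1, an RNA-binding reader, at 100% in astrocyte 1. Of 14 in genes that silence repeats 2 were soft-masked (1.78% to 42.8%). They lay in Zfp809, a zinc finger protein that binds retroviral elements, at 100% in astrocyte 1, and in Dnmt3a, a DNA methyltransferase, at 80% in microglia 2. Of 10 in genes that edit or sense double-stranded RNA 0 were soft-masked (upper limit 30.8%). The intervals of these lists include both shares. Zinc finger genes named Zfp stood above both shares: 24 of 146 positions were soft-masked, 16.4% (interval 10.8 to 23.5), in 23 of 94 genes. Their levels ran from 30% to 100% with a median of 84.5%, beside 83.3% at unmasked sites of Zfp genes, and 0 of the 24 positions was listed in a second library. Of all soft-masked coding positions 20 of 289 were, 6.92%, also a small share. The Zfp count was not tested against it. By library there were 14 such sites of 64 in astrocyte 1, 7 of 39 in astrocyte 2, 0 of 15 in microglia 1 and 3 of 39 in microglia 2.

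By label, 6 of the 501 positions appeared in the 2 astrocyte libraries alone, 1.20%, against a background of 0.985% of all positions. Another 5 appeared in the 2 microglia libraries alone, 1.0%, against a background of 1.11%. Both shares are near the background. They lie above the 0.626% and 0.357% of unmasked gene positions and below the 1.30% and 1.90% of soft-masked positions outside genes. The first set lay in 9330117O12Rik, Gm23143, Igh, Kdm6b, LOC118567609 and Pcyox1 and the second in Gm24552, Gm31290, Gm4841, Gm52775 and Pfkm. Kdm6b, a histone demethylase, stood at 80% and 50% in the astrocyte libraries, and Pfkm, a glycolytic enzyme, at 100% and 50% in the microglia libraries. Of the 4 pairs that crossed the labels, astrocyte 1 and microglia 2 alone held 11 positions (2.20% against 3.14% of all positions) and astrocyte 2 and microglia 1 alone held 6 (1.20% against 0.719%). Astrocyte 1 and microglia 1 alone held 16 (3.19% against 3.84%), and astrocyte 2 and microglia 2 alone held 5 (0.998% against 0.789%). None of these shares was tested against the background.

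Over coding positions the 6 pairs of libraries shared 4 to 12. The pair with 12 was astrocyte 1 and microglia 2, 9.30% of the first and 13.8% of the second. Microglia 1, with 25 coding positions, shared 6 each with astrocyte 1 and microglia 2, 24.0% of its own and 4.65% and 6.90% of theirs. Unmasked gene sites of all classes were also shared most by astrocyte 1 and microglia 2, at 572 sites, 12.6% and 15.8% of each. Of its unmasked gene sites, microglia 1 shared 30.4% with astrocyte 1 and 21.2% with microglia 2. In lncRNA genes the pairs shared 8 to 21 soft-masked positions, most in astrocyte 1 and microglia 1, 37.5% and 50% of each. Unmasked sites were not compared by pair within a gene class. Coding positions in astrocyte 2 and microglia 1 alone were those of Siglech and Hpgds, the hematopoietic prostaglandin D synthase, whose GAC position at 65094666 of chromosome 6 stood at 60% and 50%. C5ar1, the receptor for complement C5a, had 2 positions in astrocyte 2, at 62.5% and 50%. These genes were named after their values were seen. The median level of soft-masked gene sites was 88.3% on average in the astrocyte libraries and 80% in the microglia libraries, and the difference of 8.31 points (exact permutation p = 1) turned to -14.3 in the replicate 1 libraries alone. That direction rests on the labels: the libraries with astrocyte marker sites, astrocyte 1 and microglia 2, stood at 85.7% and 60%, below the 90.9% of astrocyte 2 and the 100% of microglia 1.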

How the data were processed

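GLORI site tables of 4 libraries were used, 1 per library, with 7 columns and no header. The deposited level is a fraction from 0 to 1, per the labels' design text called with GLORI-tools. It is printed as a percent. The submitters' processing notes name STAR and mm39. The sources used here give no calling thresholds, no coverage and no rule for reads that fit several copies, so no level has a counting interval. Positions are 1-based in mm39. No sequence around the sites was used here beyond the 3-mer.

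Shares were computed with Python 3.11.15, pandas 2.3.3 and SciPy 1.17.1, with exact (Clopper-Pearson) 95% intervals. Kinds of site were compared within libraries by exact sign-flip permutation tests with Benjamini-Hochberg adjustment. Levels at sites in all 4 libraries were tested with limma 3.58.1 in R 4.3.3 on log2 odds limited to 0.01 to 0.99, without sites tied within both types, since the files hold no counts for the coverage minimum of 20 reads set out first. It was tested on simulated data. Those levels held no ties and were not limited to 0.01 to 0.99, so the test does not cover such sites.

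Genes were named by rule: the 10 with most soft-masked positions, those with a position in all 4 libraries (at most 12), and the 8 lowest below 100% in 3 or more libraries. The rules for genes with 3 or more soft-masked and no unmasked positions, and for list genes with 2 or more, found none. Members, lists and tests were chosen with earlier results of these data known. Of 5526 gene names 5452 matched the RefSeq table. P-values measure the spread between these libraries, which may be technical.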

Additional observations from a re-analysis of the deposited data

How the results depend on the processing

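Settings tried were a level of at least 20%, any lower-case letter in the 3-mer, leaving out predicted and Riken transcripts, 1 site per gene, means or levels below 100% for medians, sharing by level or within 5 bases, and leaving out each library. Protein-coding genes only, small RNA genes left out, and the replicate 1 or 2 libraries only were chosen after seeing the data. The differences in AAC, strand and share at 100% kept their direction under the 12 settings run for each, but the strand difference from unmasked gene sites fell to 1.71 without predicted and Riken transcripts. The median against unmasked gene sites was 1.59 points with means, ran from 4.19 without astrocyte 1 to 10.5 without microglia 1, and turned to -10.4 for levels below 100%, and the sharing difference to -0.87 in coding genes; it was 4.13 without predicted and Riken transcripts. The astrocyte minus microglia difference in soft-masked share turned to 0.12 without predicted and Riken transcripts and 1.59 in the replicate 2 libraries, and ran from -5.40 without microglia 2 to 1.22 without microglia 1. The difference in median level was -14.3 in the replicate 1 libraries, 30.9 in the replicate 2 libraries, and ran from -11.7 without microglia 2 to 28.3 without microglia 1. The cause was not tested. With the types as labelled, limma called 0 sites with levels limited to 0.05 to 0.95, with the replicate block and with tied sites kept. Since replicate 2 marker sites go against the labels, this cannot decide on a difference between cell types. Only 1 soft-masked gene site could be tested, too few for a fit of these alone. Deviations from the mean of each labelled type correlated at -0.07 between libraries with the same number. As the marker sites of replicate 2 go against the labels, this cannot decide whether the numbers pair the libraries. They were not taken to do so. No p over 3 libraries can fall below 0.25. Read depth, and so the precision of each level, is unknown.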
